A study of Mus musculus with 12 samples.

Results

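The SLC25 family comprises the carrier proteins that move metabolites, nucleotides, cofactors and ions across the inner mitochondrial membrane. Most are built from 3 repeated modules and work by alternately opening to either side of the membrane, usually exchanging 1 substrate for another. In brown fat, where mitochondria burn fuel for heat, these carriers supply the matrix with substrates, phosphate, amino acids and cofactors. The uncoupling proteins with Ucp symbols belong to the same protein family and were not counted among the members.

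Members were the probe sets whose single gene symbol was Slc25a followed by a number, with Slc25a1, Slc25a20, Slc25a44 and Slc25a46 left out. They comprised 42 genes with 1 probe set each, out of 22180 genes, read by 23521 probe sets with a single symbol. Expression was measured in brown adipose tissue on 12 whole-transcript arrays, 3 per group. The groups were mice with adipocyte-specific Sel1L deficiency at 4 °C, control littermates at 4 °C, Sel1L-deficient mice at room temperature and control littermates at room temperature. All mice were on the C57BL/6J background and carried floxed Sel1L alleles. Deficient mice also carried a Cre recombinase driven by the Adiponectin promoter, so other cell types of the tissue kept the gene. By the titles, every group had been fasted for 5 h at its temperature, 4 °C or room temperature. The titles give no separate length of cold exposure. Ages and sexes are not given in the sources used here. Nothing says how many litters the mice came from, so the tests reflect only how far these arrays spread within a group.

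Values are RMA expression values on the log2 scale, on which 1 unit is a doubling, and the array medians lay between 2.0 and 2.1. All 11 measured brown adipocyte markers read above that range on every array, and their mean score was 9.42 to 10.4. Sel1l, the deleted gene, read 6.18, 6.09 and 5.92 in arrays labelled Sel1L-deficient against 7.37, 6.96 and 7.23 in controls at room temperature. At 4 °C it read 6.90, 6.73 and 6.54 against 6.99, 6.69 and 7.04, so the reading did not check the genotype label there. Labels conflict for control replicate 3 at room temperature, whose title says room temperature and whose source name says 4 °C. On that array the cold-responsive carriers Slc25a25 and Slc25a42 read 3.44 and 9.65, beside the other control arrays at room temperature (2.84 and 2.87, and 9.43 and 9.46) and apart from those at 4 °C (5.13 to 5.80, and 8.24 to 8.60). Their naming as cold-responsive came from the fit that held this array at room temperature, so they are not an independent check of its label. Both kept their calls for cold in controls when the array was left out. The array was kept with the room temperature controls. Moved to 4 °C, it left 0 carriers and 0 probe sets called for cold in controls. In arrays labelled Sel1L-deficient only Slc25a42 was then called for cold. The mean of 16 skeletal muscle markers spanned 2.71 to 6.69 in arrays labelled Sel1L-deficient and 5.00 to 7.97 in control arrays at 4 °C. At room temperature it spanned 3.17 to 6.44 in arrays labelled Sel1L-deficient and 6.48 to 7.33 in controls, without overlap. Averaged over both temperatures the score differed by -1.72 (4.82 against 6.54, n = 6 per genotype, exact two-sided permutation p = 0.095 within temperature). The mean of 5 endothelial markers was also lower without overlap, at 7.42 to 7.68 in arrays labelled Sel1L-deficient against 7.72 to 7.97 in controls at 4 °C, and 7.56 to 7.72 against 7.73 to 8.29 at room temperature. The mean of 7 white adipocyte markers was likewise lower, at 3.30 to 3.44 against 3.53 to 3.94 at 4 °C, and 3.47 to 3.73 against 3.95 to 4.31 at room temperature. Of these endothelial and white adipocyte markers 1 was called between genotypes, a white adipocyte marker lower at 4 °C, and the score of 7 macrophage markers overlapped at both temperatures. No defining marker of muscle, endothelium or macrophages averaged at the level of the array medians in every group. Of the 7 white adipocyte markers, 2 averaged at or below the highest array median in every group. The part of these scores in the genotype differences below was not tested, except where a fit with the muscle score is given.

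A carrier was called when its adjusted p was under 0.05 over all 23521 probe sets (limma, Benjamini-Hochberg). Cold exposure changed 6 carriers in arrays labelled Sel1L-deficient, with 2 higher and 4 lower. In controls it changed 9, with 1 higher and 8 lower. Of all probe sets, 9.03% and 11.1% were called in these cold comparisons. By direction, 4.32% were higher and 4.7% lower in arrays labelled Sel1L-deficient, and 4.85% were higher and 6.23% lower in controls. Between arrays labelled Sel1L-deficient and controls, 3 carriers differed at 4 °C, where 5.8% of all probe sets were called, and 1 at room temperature, where 1.72% were. At 4 °C Sel1l itself was not called (adjusted p = 0.605). With cold it was called higher in arrays labelled Sel1L-deficient (0.66 ± 0.14, adjusted p = 0.012) and not in controls (-0.28 ± 0.14, adjusted p = 0.28). Its interaction was 0.94 ± 0.20 (adjusted p = 0.0862). The cold comparison in arrays labelled Sel1L-deficient and the interaction thus rest on arrays whose Sel1l reading differed between temperatures. The part of this in the carriers' results was not tested. By direction, 3.61% of all probe sets were higher and 2.19% lower for genotype at 4 °C (2 and 1 carriers), and 1.29% were higher and 0.429% lower at room temperature (0 and 1 carriers). The members' shares were 14.3%, 21.4%, 7.14% and 2.38% in the same order. The genotype shares lay near the background and are not a result about the family. The brown adipocyte score did not overlap between the genotypes at 4 °C, at 10.0 on every array labelled Sel1L-deficient against 10.3 to 10.4 in controls, and 2 of its 11 markers were called lower there. At 4 °C, Ppargc1a averaged 9.83 in arrays labelled Sel1L-deficient against 11.25 in controls, and Pparg 9.25 against 10.02. The means were 12.71 against 12.75 for Ucp1, 11.70 against 11.71 for Cidea, 11.06 against 11.04 for Dio2 and 12.29 against 12.22 for Fabp4. Adipoq, Cox8b, Elovl3, Plin1 and Prdm16 averaged 7.73, 10.6, 11.2, 9.14 and 4.68 against 8.01, 10.9, 11.4, 9.28 and 4.95. The part of this score in the differences at 4 °C was not tested.

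Groups that did not overlap were counted as well. Between temperatures, 17 carriers did not overlap in arrays labelled Sel1L-deficient (25.8% of all probe sets) and 14 in controls (25.9%). Between genotypes there were 12 at 4 °C (21.8%) and 11 at room temperature (17.4%). At room temperature 9 of the 11 lay below controls and 2 above, where 8.62% of all probe sets lay below and 8.76% above. The 9 were Slc25a4, Slc25a10, Slc25a11, Slc25a12, Slc25a15, Slc25a23, Slc25a32, Slc25a42 and Slc25a48. In the order named they differed by -0.33, -0.30, -0.70, -0.64, -0.36, -0.41, -0.51, -0.37 and -0.87. With the muscle score in the fit they differed by -0.13, 0.01, -0.42, -0.01, -0.32, -0.21, -0.51, -0.36 and -0.77. The skeletal muscle, endothelial and white adipocyte scores lay below controls on the same arrays. The part of these scores in this count was not tested further.

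The median difference over the 42 carriers was near 0 in the 4 comparisons of 2 groups. It was 0.0002 for cold in arrays labelled Sel1L-deficient and 0.0047 for cold in controls, against -0.01 over all probe sets in both. From the lower to the upper quartile the members spanned 0.52 and 0.51 log2 units in these cold comparisons, against 0.29 and 0.31 for all probe sets. Here and in the shares above, all probe sets were not matched to the members' expression level. Of the 42 carriers, 32 averaged above the highest array median in every group. The part of expression level in the wider span was not tested. For genotype, the median was -0.02 at 4 °C and -0.01 at room temperature, with -0.01 over all probe sets in both. For the interaction, the cold response of arrays labelled Sel1L-deficient minus that of controls, it was 0.12, against 0 over all probe sets. In all, 12 carriers were called in at least 1 comparison, and 8 carriers (Slc25a2, Slc25a13, Slc25a21, Slc25a29, Slc25a31, Slc25a41, Slc25a43 and Slc25a54) averaged at or below the highest array median in every group. A call or its lack says little about carriers so near the background. The genotype comparisons and the cold comparisons share arrays with each other (the control arrays at room temperature enter both of theirs), so a carrier that differs in several of them is not independent evidence.

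**Figure D1:**
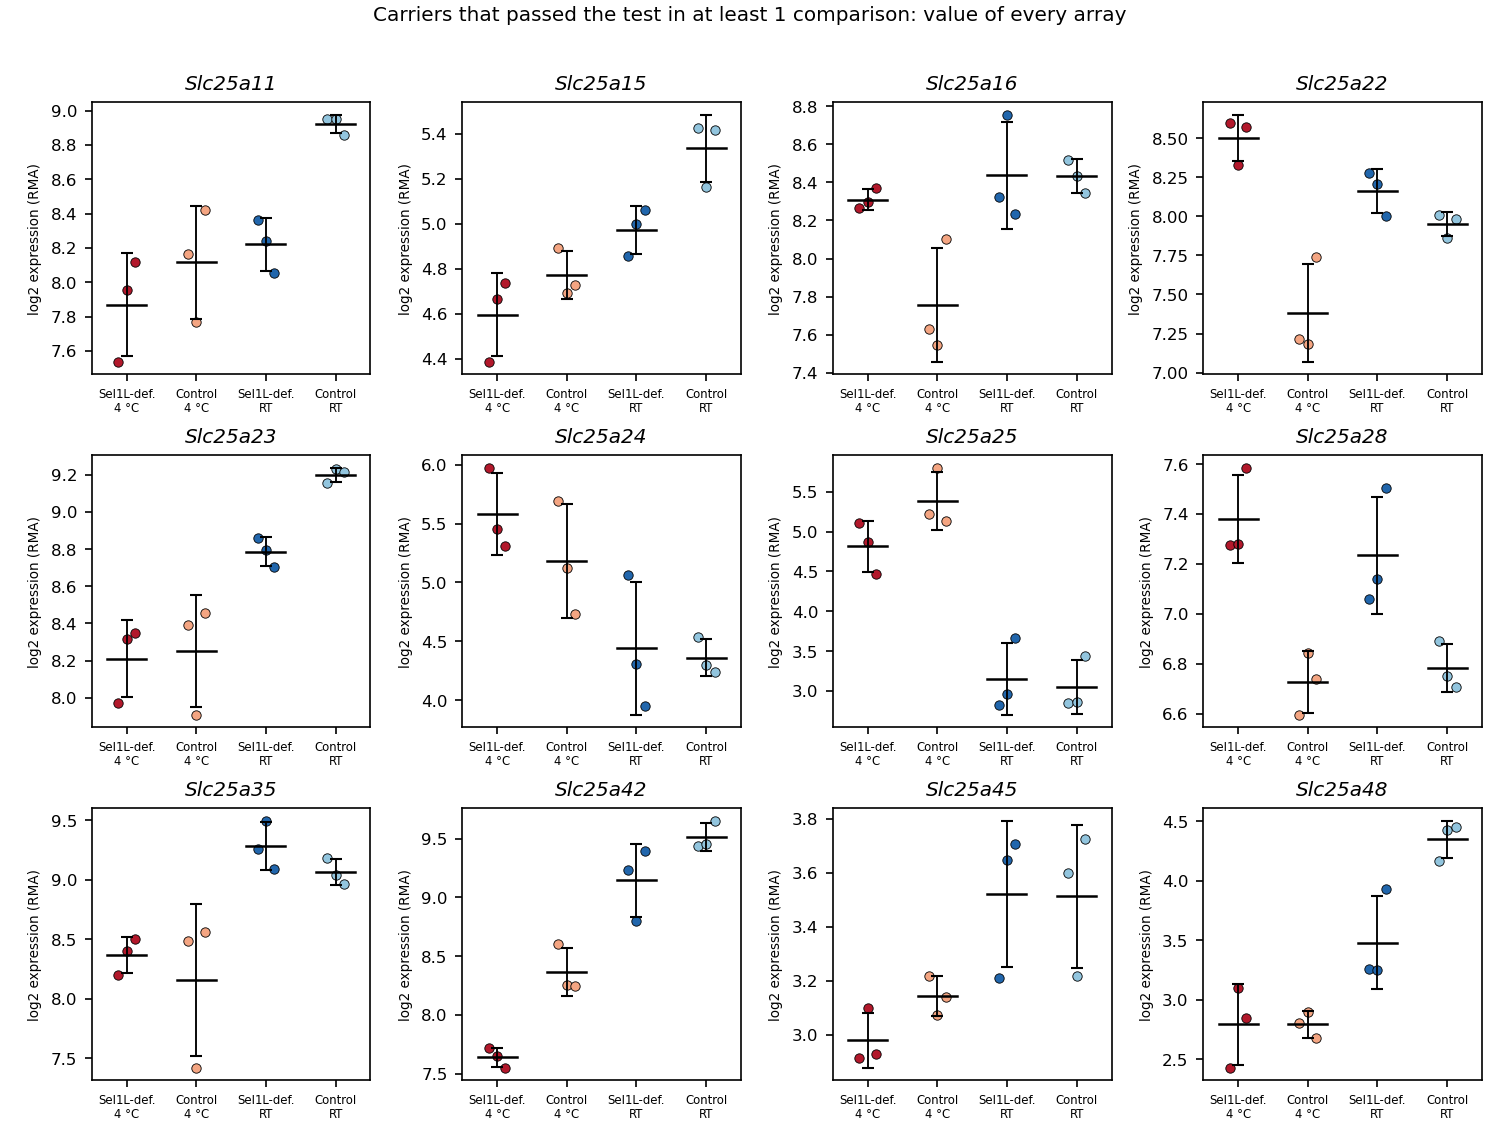
RMA values (log2) of the 12 carriers called in at least 1 comparison, with 1 point per array, the group mean as a bar and its SD as the error bar (n = 3). Slc25a15, Slc25a23, Slc25a24, Slc25a25, Slc25a35, Slc25a42 and Slc25a48 separate the temperatures in both genotypes. Slc25a16, Slc25a22, Slc25a25, Slc25a28 and Slc25a42 separate the genotypes at 4 °C. Axes do not start at 0.

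**Figure D2:**
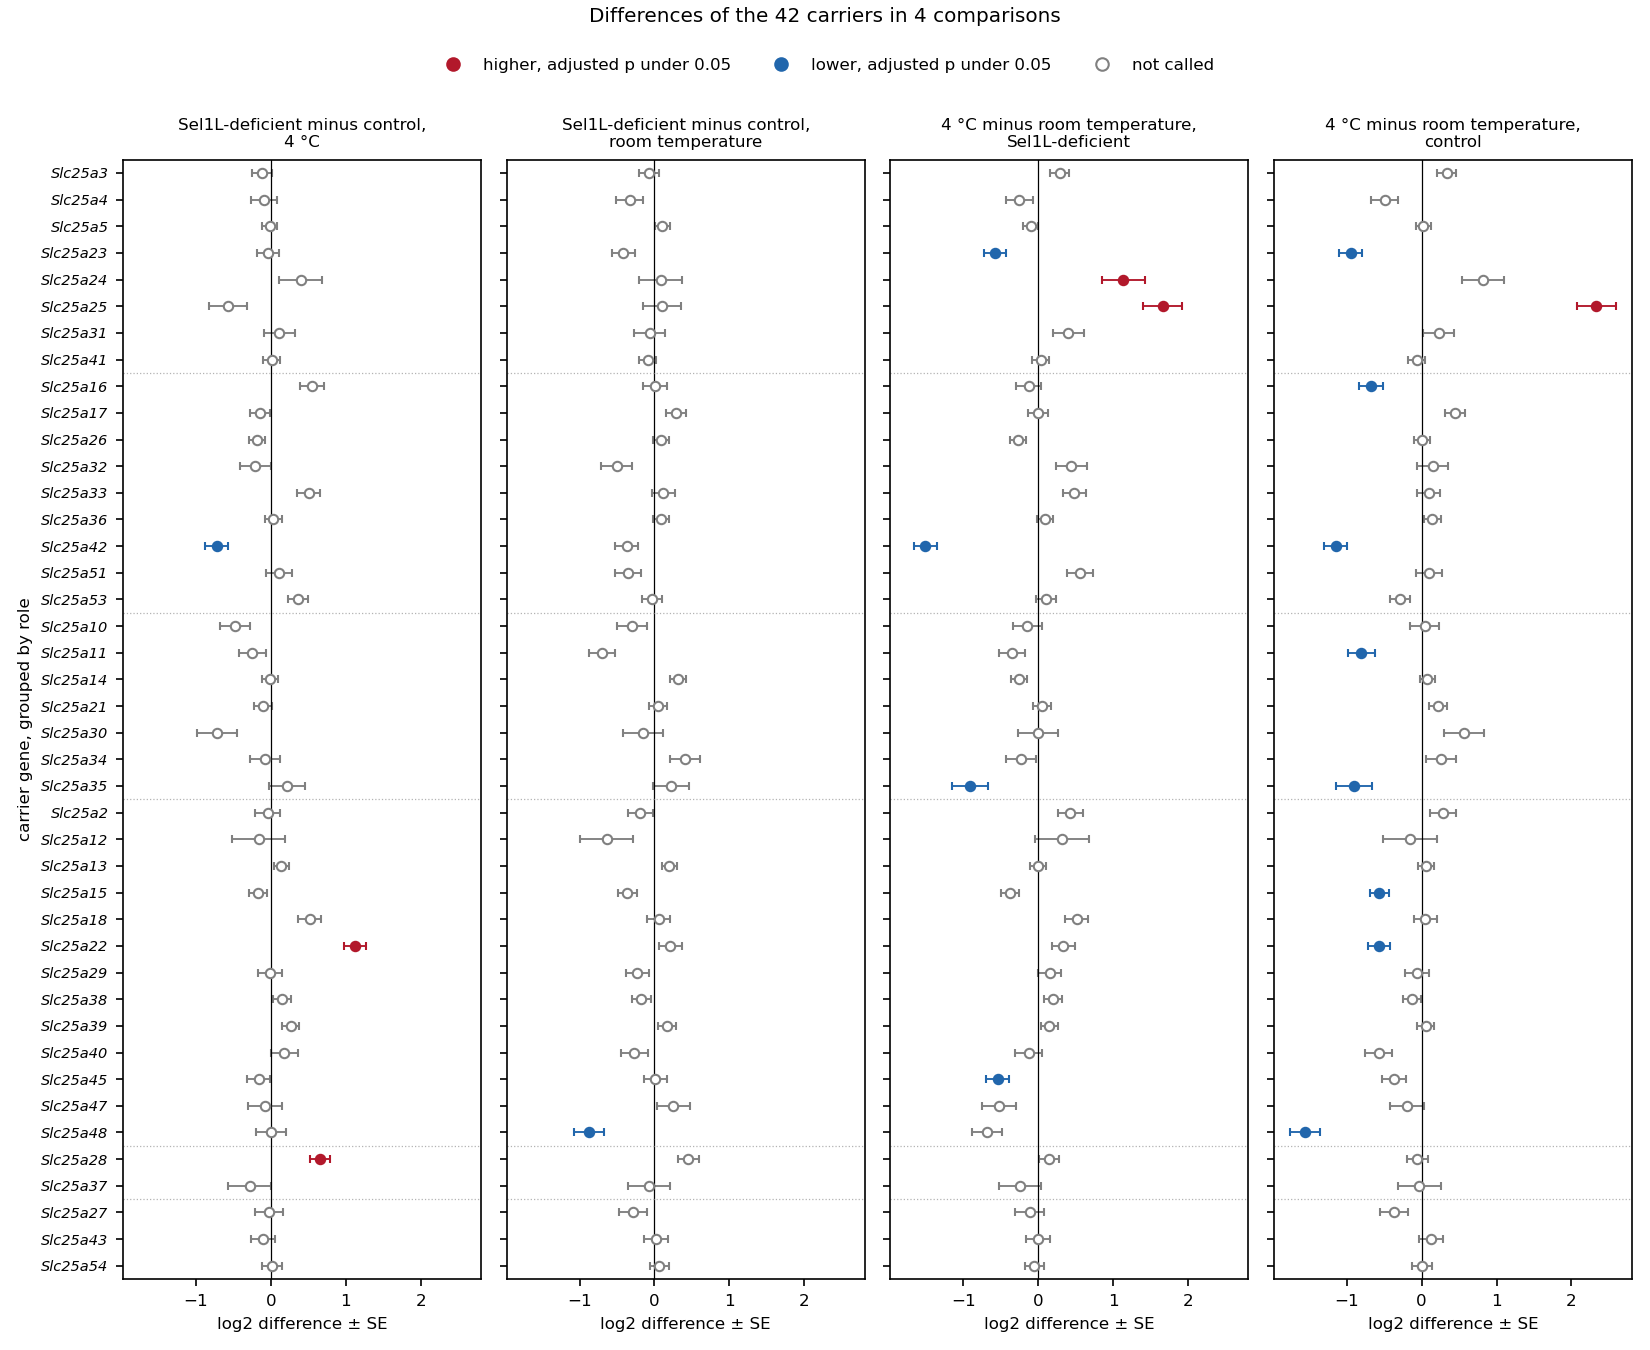
Difference of each of the 42 carriers (log2, error bars are the model's SE) in the 4 comparisons of 2 groups, in blocks of ADP/ATP and phosphate, nucleotides and cofactors, carboxylates and anions, amino acids and glutathione, iron, and other carriers from top to bottom. Filled points passed the test, 3 and 1 for genotype at 4 °C and room temperature, and 6 and 9 for cold in arrays labelled Sel1L-deficient and in controls.

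Among the carriers of adenine nucleotides and phosphate, Slc25a25 showed the widest cold response of the family in both genotypes. It encodes a calcium-regulated carrier that exchanges ATP-Mg for phosphate and so adjusts the adenine nucleotide content of the matrix. It read 5.11, 4.86 and 4.47 at 4 °C against 2.83, 2.96 and 3.66 at room temperature in arrays labelled Sel1L-deficient. In controls it read 5.22, 5.80 and 5.13 at 4 °C against 2.84, 2.87 and 3.44 at room temperature. All cold arrays lay above all room temperature arrays of their genotype. The rise was 3.17-fold in arrays labelled Sel1L-deficient (log2 1.66 ± 0.26 SE, adjusted p = 0.00164) and 5.04-fold in controls (2.33 ± 0.26, adjusted p = 0.00024). Both calls were kept when any single array was left out. The difference between these rises, -0.67 ± 0.36, did not pass the test (adjusted p = 0.605, 95% interval -1.46 to 0.12). At 4 °C the genotypes differed by -0.57 ± 0.26 (adjusted p = 0.283), with every array labelled Sel1L-deficient below every control.

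RefSeq lists 3 transcription starts for Slc25a25 in the table used. The 250 bases before one of them hold the 8-letter cyclic AMP response element TGACGTCA, the site of CREB-type factors, which act downstream of adrenergic signalling in fat. Of the 42 members, 34 had a start window in the promoter table, with 44 windows in all. Those without one were Slc25a2, Slc25a26, Slc25a27, Slc25a32, Slc25a35, Slc25a37, Slc25a41 and Slc25a51. This element (searched on both strands of these windows) was found in 2 of the 44, or 4.5%, against 1.5% of all 32851 windows. Slc25a36, a pyrimidine nucleotide carrier, held the other. The windows are printed because they carry the same element beside different cold responses, with the matched motifs in capitals and each reading 5′ to 3′ on the gene's strand up to the base before the start (RefSeq, GRCm38.p6).
Slc25a25, chr2:32424067-32424316, minus strand: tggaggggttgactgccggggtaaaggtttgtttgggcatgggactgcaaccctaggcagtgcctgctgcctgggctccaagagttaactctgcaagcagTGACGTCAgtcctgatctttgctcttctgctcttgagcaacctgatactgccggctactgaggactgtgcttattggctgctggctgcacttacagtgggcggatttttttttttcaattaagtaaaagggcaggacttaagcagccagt
Slc25a36, chr9:97111042-97111291, minus strand: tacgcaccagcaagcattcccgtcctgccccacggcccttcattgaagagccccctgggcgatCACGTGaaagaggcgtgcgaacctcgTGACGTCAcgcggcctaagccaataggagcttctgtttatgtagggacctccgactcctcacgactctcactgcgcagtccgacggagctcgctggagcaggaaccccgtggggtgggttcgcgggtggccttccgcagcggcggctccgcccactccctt
The capitals begin 150 bases before the start in Slc25a25. In Slc25a36 they begin 161 bases before it, and an E-box (CACGTG) begins 187 bases before it. Slc25a36 read 6.32, 6.42 and 6.39 at 4 °C against 6.09, 6.45 and 6.29 at room temperature in arrays labelled Sel1L-deficient, a difference of 0.10 ± 0.11 (adjusted p = 0.713). In controls it differed by 0.14 ± 0.11 (adjusted p = 0.5). Which start of Slc25a25 the probe set reads was not tested, and a match of letters is not a bound site.

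The shorter cyclic AMP core TGACG, which overlaps the full element, was found on either strand in 11 of the 44 windows, against 17.8% of all windows. They belonged to 10 genes, among them Slc25a25, Slc25a16 and Slc25a28, which were called in some comparison, and Slc25a3, Slc25a33 and Slc25a40, which were not. The E-box CACGTG was found in 7 windows (15.9% against 6.0%), of which only that of Slc25a15 belonged to a carrier called in any comparison. These windows belonged to 6 genes, since overlapping windows of Slc25a14 held the same E-box. The TGACG core of Slc25a14 was counted more than once in the same way. The nuclear receptor motif AAGGTCA was found in 1 window, that of Slc25a34 (2.3% against 4.1%). The ATF4 composite element TGATGNAAT was found in 0 of 44 windows (0.8% of all windows).

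The paralogs of Slc25a25 went separate ways. Slc25a24, another calcium-regulated ATP-Mg carrier, read 5.97, 5.46 and 5.31 at 4 °C against 5.06, 4.31 and 3.95 at room temperature in arrays labelled Sel1L-deficient. It rose there 2.2-fold (1.14 ± 0.29, adjusted p = 0.0261). The call was lost without any of 4 arrays, replicates 1 or 2 at 4 °C and replicates 2 or 3 at room temperature (adjusted p up to 0.112). Control arrays read 5.69, 5.12 and 4.73 against 4.54, 4.30 and 4.24, with no overlap between temperatures. Their difference of 0.82 ± 0.29 was not called (adjusted p = 0.0943). It passed without control replicate 3 at 4 °C (1.04, adjusted p = 0.0394) or replicate 1 labelled Sel1L-deficient at room temperature (adjusted p = 0.0461).

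Slc25a23, one more carrier of this kind, moved in the opposite direction. It read 7.97, 8.32 and 8.35 at 4 °C against 8.86, 8.79 and 8.71 at room temperature in arrays labelled Sel1L-deficient, and 8.39, 7.91 and 8.46 against 9.16, 9.23 and 9.21 in controls. Cold arrays lay below room temperature arrays in both genotypes. The fall was 0.58 on the log2 scale in arrays labelled Sel1L-deficient (-0.58 ± 0.15, adjusted p = 0.0298) and 1.93-fold in controls (-0.95 ± 0.15, adjusted p = 0.00163). The call in arrays labelled Sel1L-deficient was marginal, since leaving out any of 5 of the 6 arrays compared, all except replicate 3 at 4 °C, ended it (adjusted p up to 0.125). Its neighbour on chromosome 17, Slc25a41, a shorter relative, read 1.25 to 1.65 on all arrays, below the array medians.

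The carriers that exchange ADP for ATP and import phosphate, on which oxidative phosphorylation depends, did not pass the test in any comparison with all arrays in the fit. Slc25a3, the phosphate carrier, read 8.01, 7.87 and 8.07 in arrays labelled Sel1L-deficient and 8.07, 8.05 and 8.17 in controls at 4 °C. At room temperature it read 7.82, 7.59 and 7.67 against 8.06, 7.62 and 7.61. The differences for cold were 0.29 ± 0.13 in arrays labelled Sel1L-deficient (adjusted p = 0.23) and 0.33 ± 0.13 in controls (adjusted p = 0.139, and 0.0288 without control replicate 1 at room temperature), and those for genotype were -0.12 at 4 °C and -0.07 at room temperature. Slc25a5, the ADP/ATP carrier ANT2, stayed between 10.1 and 10.4 on all 12 arrays. Its differences ran from -0.10 to 0.10, and the 95% interval of the genotype difference was -0.23 to 0.20 at 4 °C and -0.12 to 0.32 at room temperature.

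Slc25a4, the ADP/ATP carrier ANT1 that predominates in skeletal muscle and heart, read 8.33, 8.55 and 8.47 in arrays labelled Sel1L-deficient against 8.52, 8.14 and 8.96 in controls at 4 °C. At room temperature it read 8.78, 8.80 and 8.52 against 9.11, 9.14 and 8.86, without overlap. Neither genotype difference was called (-0.09 ± 0.18 and -0.33 ± 0.18, adjusted p = 0.882 and 0.472). Its cold difference in controls was -0.49 ± 0.18 (adjusted p = 0.103) and became -0.70 (adjusted p = 0.0104) without control replicate 3 at 4 °C, the array with the highest muscle score, 7.97.

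**Figure D3:**
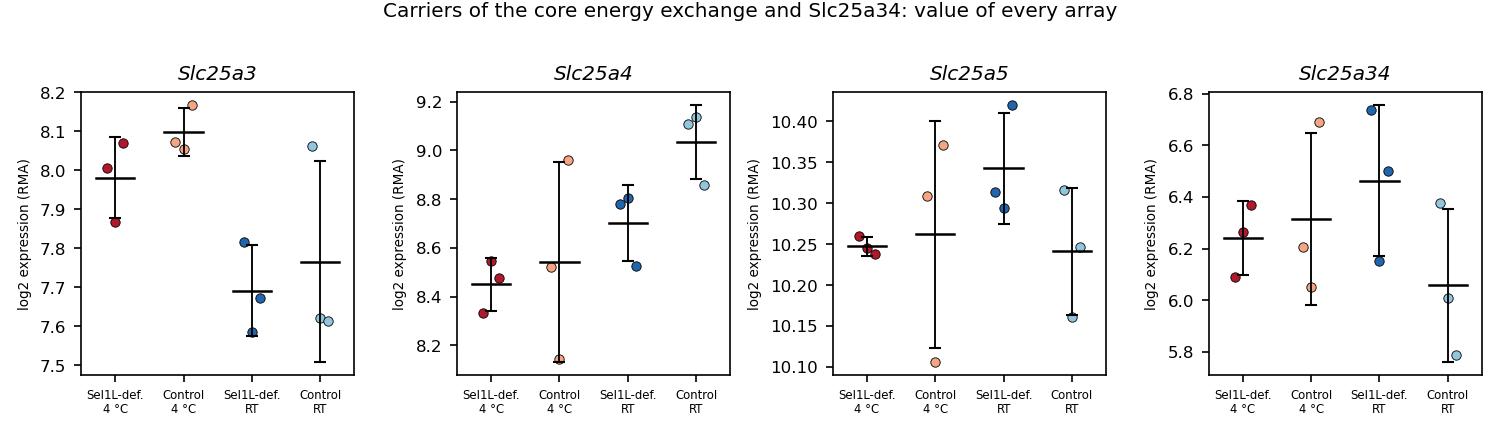
RMA values (log2) of the phosphate carrier Slc25a3, the ADP/ATP carriers Slc25a4 and Slc25a5, and Slc25a34, with 1 point per array, the group mean as a bar and its SD as the error bar (n = 3). None passed the test in any comparison with all arrays in the fit. Slc25a5 stays between 10.1 and 10.4 on all arrays, and the axes do not start at 0.

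Among carriers of nucleotides and cofactors, Slc25a42 changed in 3 comparisons. It imports coenzyme A into the matrix in exchange for adenine nucleotides. It read 7.71, 7.65 and 7.55 in arrays labelled Sel1L-deficient and 8.60, 8.25 and 8.24 in controls at 4 °C. At room temperature it read 9.23, 8.80 and 9.40 in arrays labelled Sel1L-deficient and 9.43, 9.46 and 9.65 in controls. None of these groups overlapped with another. Cold lowered it 2.84-fold in arrays labelled Sel1L-deficient (-1.50 ± 0.15, adjusted p = 0.000142), and this call was kept under every alternative run. In controls the fall was 2.22-fold (-1.15 ± 0.15, adjusted p = 0.000719).

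At 4 °C, Slc25a42 was also 1.65-fold lower in arrays labelled Sel1L-deficient than in controls (-0.73 ± 0.15, adjusted p = 0.0149), one of the 3 carriers called there. This call was lost without replicates 2 or 3 labelled Sel1L-deficient or control replicate 1 at 4 °C (adjusted p = 0.051, 0.0639 and 0.0717), and with the conflicting array moved to 4 °C. At room temperature the difference was -0.37 ± 0.15 (adjusted p = 0.321). The difference between the cold responses, -0.36 ± 0.22, was not called (adjusted p = 0.661). In whole tissue, fewer cells of a type and less RNA per cell cannot be told apart for this or any other carrier.

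Slc25a16, linked to mitochondrial coenzyme A in human cells, fell with cold in controls. In arrays labelled Sel1L-deficient it read 8.26, 8.29 and 8.37 at 4 °C against 8.32, 8.75 and 8.23 at room temperature, a difference of -0.13 ± 0.16 (adjusted p = 0.759). In controls it read 7.63, 7.54 and 8.10 at 4 °C against 8.52, 8.44 and 8.34 at room temperature. The fall in controls was 1.59-fold (-0.67 ± 0.16, adjusted p = 0.0177), and was lost without control replicates 1 or 2 at either temperature (adjusted p up to 0.0801). The interaction, 0.55 ± 0.23, did not pass (adjusted p = 0.453). At 4 °C the genotypes did not overlap, with a difference of 0.55 ± 0.16 (adjusted p = 0.0708) that passed without control replicate 3 at 4 °C (0.72, adjusted p = 0.0144), with array weights (adjusted p = 0.035) and with a mean-dependent prior (adjusted p = 0.0474).

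The other 7 carriers of this group were not called in the main fit, with all arrays, equal weights and the default prior. Slc25a33, a pyrimidine nucleotide carrier, was 0.50 ± 0.15 higher in arrays labelled Sel1L-deficient at 4 °C (adjusted p = 0.0841) with no overlap, and passed without control replicate 3 at 4 °C (adjusted p = 0.0152) and with array weights (adjusted p = 0.0362). Slc25a51, the NAD carrier, differed by 0.56 ± 0.17 with cold in arrays labelled Sel1L-deficient (adjusted p = 0.0673, and 0.043 with a mean-dependent prior) and by 0.09 ± 0.17 in controls. Slc25a17, which serves peroxisomes rather than mitochondria, differed by 0.00 with cold in arrays labelled Sel1L-deficient and by 0.44 ± 0.13 in controls (adjusted p = 0.0522, and 0.029 with a mean-dependent prior). Slc25a26 and Slc25a32, carriers of S-adenosylmethionine and of folate or its flavin relatives, had cold and genotype differences between -0.51 and 0.45.

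Among carriers of carboxylates and anions, Slc25a11 fell with cold in controls and Slc25a35 in both genotypes. Slc25a11, the oxoglutarate/malate carrier of the malate-aspartate shuttle, read 7.54, 7.95 and 8.12 at 4 °C against 8.36, 8.24 and 8.06 at room temperature in arrays labelled Sel1L-deficient, which overlapped (-0.35 ± 0.18, adjusted p = 0.294). In controls it read 8.16, 7.77 and 8.42 against 8.95, 8.95 and 8.86, a 1.75-fold fall (-0.80 ± 0.18, adjusted p = 0.011). At room temperature every array labelled Sel1L-deficient lay below every control, by 0.70 on average (-0.70 ± 0.18), without a call (adjusted p = 0.0713, and 0.0442 with a mean-dependent prior). That difference was -0.42 ± 0.16 with the muscle score in the fit (adjusted p = 0.386).

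Slc25a35, a carrier without an agreed substrate, read 8.20, 8.40 and 8.50 at 4 °C against 9.25, 9.50 and 9.09 at room temperature in arrays labelled Sel1L-deficient. In controls it read 8.49, 7.42 and 8.56 against 9.18, 9.04 and 8.97. The difference was -0.91 ± 0.24 in both (adjusted p = 0.0346 in arrays labelled Sel1L-deficient and 0.0304 in controls), and the interval of their difference was -0.75 to 0.74. Both were marginal. The first was lost without any of the 6 arrays compared (adjusted p up to 0.124, without replicate 2 at room temperature) and with the replicate number as a block (0.0528), and the second without any of the 3 control arrays at room temperature (up to 0.101, without replicate 1). The reading of 7.42 came from control replicate 2 at 4 °C, and the difference in controls ranged from -1.11 to -0.54 over single arrays left out.

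The dicarboxylate carrier Slc25a10 was below controls on every array labelled Sel1L-deficient at both temperatures without a call (-0.48 ± 0.20 at 4 °C, adjusted p = 0.224, and -0.30 ± 0.20 at room temperature, adjusted p = 0.598). Slc25a30 differed by -0.72 ± 0.26 between genotypes at 4 °C (adjusted p = 0.163), where the groups did not overlap. Slc25a14, like Slc25a30 a relative of the uncoupling proteins, was 0.32 ± 0.11 higher in arrays labelled Sel1L-deficient at room temperature without overlap and without a call (adjusted p = 0.196), at levels near the array medians (2.30 to 2.78 on all arrays). Slc25a34, a relative of Slc25a35, read 6.09, 6.26 and 6.37 in arrays labelled Sel1L-deficient and 6.21, 6.05 and 6.69 in controls at 4 °C, and 6.74, 6.15 and 6.5 against 6.38, 6.01 and 5.79 at room temperature. All of its groups overlapped.

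Among carriers of amino acids, Slc25a22 gave the clearest genotype difference of the family. It encodes a glutamate carrier that imports glutamate into the matrix. At 4 °C it read 8.60, 8.33 and 8.57 in arrays labelled Sel1L-deficient against 7.22, 7.19 and 7.74 in controls. Every array labelled Sel1L-deficient was above every control, by 2.17-fold (1.12 ± 0.15, adjusted p = 0.000524). The call was kept under every alternative run, with an adjusted p of at most 0.00909, and the difference ranged from 0.97 to 1.30. At room temperature it read 8.27, 8.21 and 8.0 against 8.01, 7.86 and 7.98, and the difference of 0.21 ± 0.15 was not called (adjusted p = 0.633).

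With cold, Slc25a22 differed by 0.34 ± 0.15 in arrays labelled Sel1L-deficient (adjusted p = 0.219) and fell by 0.57 in controls (-0.57 ± 0.15, adjusted p = 0.0282). The call in controls was lost without any of 5 of the 6 control arrays, all except replicate 3 at 4 °C (adjusted p up to 0.119). The interaction was 0.91 ± 0.21, with a 95% interval of 0.45 to 1.37, an unadjusted p of 0.000983 and an adjusted p of 0.111. It passed only without control replicate 3 at 4 °C (1.09, adjusted p = 0.0231), and that array read 7.74, above the other cold controls. No carrier passed the interaction test in the full fit (limma), in which 0.306% of all probe sets were called. At an unadjusted p under 0.05 there were 5 carriers, Slc25a22, Slc25a48, Slc25a16, Slc25a17 and Slc25a14, or 11.9% against 9.77% of all probe sets. The number of carriers called for the interaction was 0 in every other alternative run.

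Slc25a48, a choline carrier of the inner membrane, fell with cold in controls. In arrays labelled Sel1L-deficient it read 2.43, 3.10 and 2.85 at 4 °C against 3.26, 3.25 and 3.93 at room temperature, a difference of -0.69 ± 0.20 without overlap (adjusted p = 0.0508). Among single arrays left out, that difference passed without replicate 2 at 4 °C (-0.84, adjusted p = 0.0407) or replicate 1 at room temperature (-0.80, adjusted p = 0.0496). With 1 probe set per gene, or with the dim filter, 5 carriers rather than 4 were called lower for cold in these arrays. Of the lower carriers not called there in the main fit, Slc25a48 had the lowest adjusted p. In controls Slc25a48 read 2.80, 2.90 and 2.67 at 4 °C against 4.17, 4.42 and 4.45 at room temperature, a 2.94-fold fall (-1.56 ± 0.20, adjusted p = 0.000522). At room temperature it was 1.83-fold lower in arrays labelled Sel1L-deficient (-0.87 ± 0.20, adjusted p = 0.0492), the only carrier called there. The call was lost in 15 of 22 alternatives, among them leaving out any of 9 of the 12 arrays (adjusted p up to 0.155, without replicate 2 labelled Sel1L-deficient). It was also lost with the muscle score in the fit (-0.77 ± 0.24, adjusted p = 0.251), and the muscle score did not overlap between these groups, a difference whose part in the result was not tested further. At 4 °C the genotypes differed by 0.00 ± 0.20. Since values of the controls at room temperature enter both the cold and the genotype difference of this carrier, these are not separate results.

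Slc25a15, the ornithine/citrulline carrier of the urea cycle, fell with cold in controls. In arrays labelled Sel1L-deficient it read 4.39, 4.67 and 4.74 at 4 °C against 4.86, 5.00 and 5.06 at room temperature, without overlap and without a call (-0.38 ± 0.12, adjusted p = 0.0876). In controls it read 4.89, 4.69 and 4.73 against 5.43, 5.16 and 5.42, also without overlap (-0.56 ± 0.12, adjusted p = 0.0114). Slc25a45, a little studied member, read 2.92, 3.10 and 2.93 at 4 °C against 3.21, 3.65 and 3.71 at room temperature in arrays labelled Sel1L-deficient (-0.54 ± 0.15, adjusted p = 0.0477). That call was lost without any of 9 arrays (adjusted p up to 0.163). Control arrays read 3.22, 3.07 and 3.14 against 3.60, 3.22 and 3.72 (-0.37 ± 0.15, adjusted p = 0.17).

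The aspartate/glutamate carriers Slc25a12 and Slc25a13, which serve the malate-aspartate shuttle together with Slc25a11, were not called. Slc25a12 had the widest SE of the 42, at 0.36. It read 5.15, 5.69 and 5.33 in arrays labelled Sel1L-deficient against 5.04, 4.99 and 6.64 in controls at 4 °C, and 5.47, 4.80 and 4.94 against 5.58, 5.58 and 5.97 at room temperature. Its highest value came from control replicate 3 at 4 °C, which also had the highest muscle score. Slc25a39, a carrier of glutathione, differed by at most 0.26 in the comparisons of 2 groups.

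Of the uncalled carriers of this group, Slc25a18 and Slc25a40 had the lowest adjusted p. Slc25a18, a glutamate carrier like Slc25a22, read 2.97, 2.34 and 2.38 in arrays labelled Sel1L-deficient against 2.18, 2.05 and 1.91 in controls at 4 °C, and 1.99, 2.10 and 2.06 against 1.90, 2.01 and 2.08 at room temperature, close to the array medians. The arrays labelled Sel1L-deficient at 4 °C lay above both the controls at 4 °C (0.52 ± 0.15, adjusted p = 0.0721) and their own room temperature arrays (0.51 ± 0.15, adjusted p = 0.056, and 0.0495 without replicate 2 at 4 °C). Slc25a40, linked to mitochondrial glutathione, read 4.82, 4.60 and 4.53 at 4 °C against 4.51, 4.86 and 4.96 at room temperature in arrays labelled Sel1L-deficient. Its control readings were 4.45, 4.31 and 4.65 against 5.17, 5.32 and 4.64, a difference of -0.57 ± 0.18 with overlap (adjusted p = 0.0622). That difference passed without replicate 3 at room temperature, the array with the conflicting label (-0.78, adjusted p = 0.0126).

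Slc25a47, a carrier known from mouse liver, read 2.25, 2.74 and 2.85 in arrays labelled Sel1L-deficient against 2.46, 2.64 and 2.98 in controls at 4 °C, and 3.03, 3.35 and 3.03 against 2.57, 3.40 and 2.68 at room temperature. Arrays labelled Sel1L-deficient did not overlap between temperatures (-0.53 ± 0.23, adjusted p = 0.203), and the other groups compared did. Among the carriers placed in no role group, Slc25a27, also known as an uncoupling protein, was below the room temperature arrays on all cold arrays in controls without a call (-0.37 ± 0.19, adjusted p = 0.266).

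Iron reaches the matrix through the mitoferrins. Slc25a28, mitoferrin 2, read 7.27, 7.28 and 7.59 in arrays labelled Sel1L-deficient against 6.60, 6.84 and 6.74 in controls at 4 °C, 1.57-fold higher (0.65 ± 0.14, adjusted p = 0.0138). The call was lost without replicate 3 labelled Sel1L-deficient or control replicate 1 at 4 °C (adjusted p = 0.0661 and 0.0662). At room temperature it read 7.06, 7.14 and 7.50 against 6.89, 6.75 and 6.71, again above every control (0.45 ± 0.14, adjusted p = 0.151). Temperature moved it by 0.15 or less. Slc25a37, mitoferrin 1, which is best known from developing red blood cells, differed by -0.28 ± 0.29 at 4 °C and -0.07 ± 0.29 at room temperature and was not called. Only 2 of 7 red blood cell markers were measured by single-symbol probe sets, so blood in the tissue was not assessed further.

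The cold responses of the genotypes were compared over separate arrays. Across the 42 carriers they had a Pearson r of 0.80 and a Spearman rho of 0.63, against a Pearson r of 0.64 over all probe sets. No Spearman rho was computed over all probe sets, and these were not matched to the carriers' expression level. The correlations are a description across genes, which share arrays and are not independent. The sign was the same in 27 of 42 carriers. Called in both genotypes were 4 carriers, Slc25a25, Slc25a42, Slc25a23 and Slc25a35. Another 2 were called in arrays labelled Sel1L-deficient (Slc25a24 and Slc25a45) and 5 in controls (Slc25a11, Slc25a15, Slc25a16, Slc25a22 and Slc25a48), but none of these 7 had an interaction that passed the test, so they were not shown to respond differently.

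**Figure D4:**
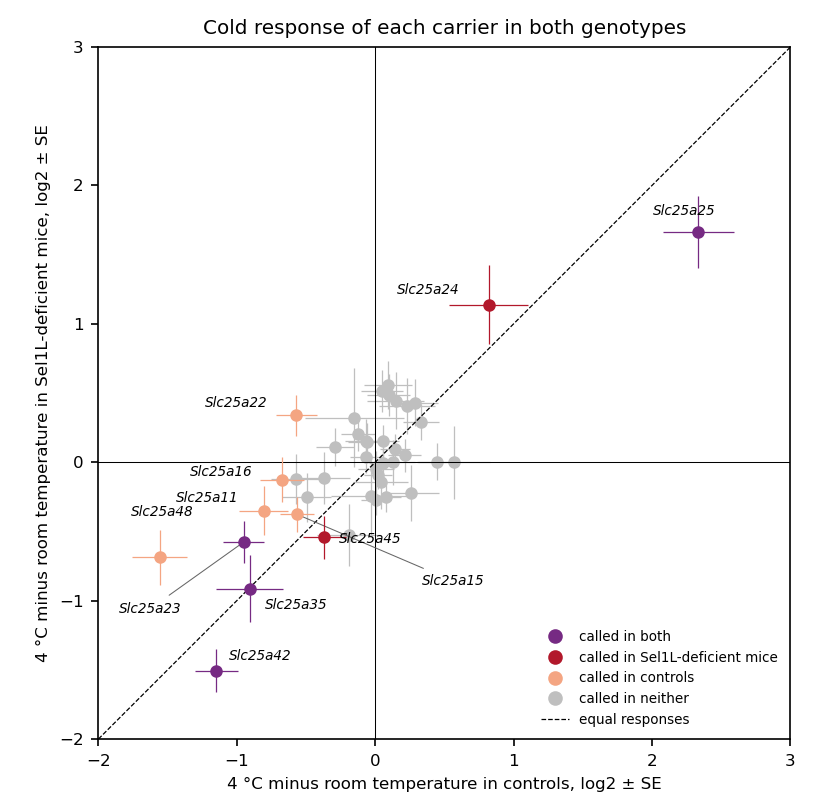
Cold response of each of the 42 carriers (4 °C minus room temperature, log2 ± SE), with arrays labelled Sel1L-deficient on the vertical axis and controls on the horizontal axis. The 4 carriers called in both lie far from 0 on both axes, and Slc25a22 lies above 0 in arrays labelled Sel1L-deficient (0.34) and below 0 in controls (-0.57).

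Within groups, no carrier followed the muscle score past the test. The slope was estimated in a fit with group means and the score, in which 0.268% of all probe sets were called and 0 of 42 carriers were (limma). At an unadjusted p under 0.05 there were 6 carriers, or 14.3%, against 5.34% of all probe sets. The nearest was Slc25a12, at 0.26 ± 0.07 log2 units per unit of the score (adjusted p = 0.347), followed by Slc25a11 at 0.12 ± 0.04 and Slc25a10 at 0.13 ± 0.04. Slc25a4 had a slope of 0.08 ± 0.04 (adjusted p = 0.947). With the score in the fit, the 3 carriers called for genotype at 4 °C stayed called, with differences of 1.16 for Slc25a22, 0.64 for Slc25a28 and -0.72 for Slc25a42 (adjusted p = 0.000862, 0.0274 and 0.0281).

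**Figure D5:**
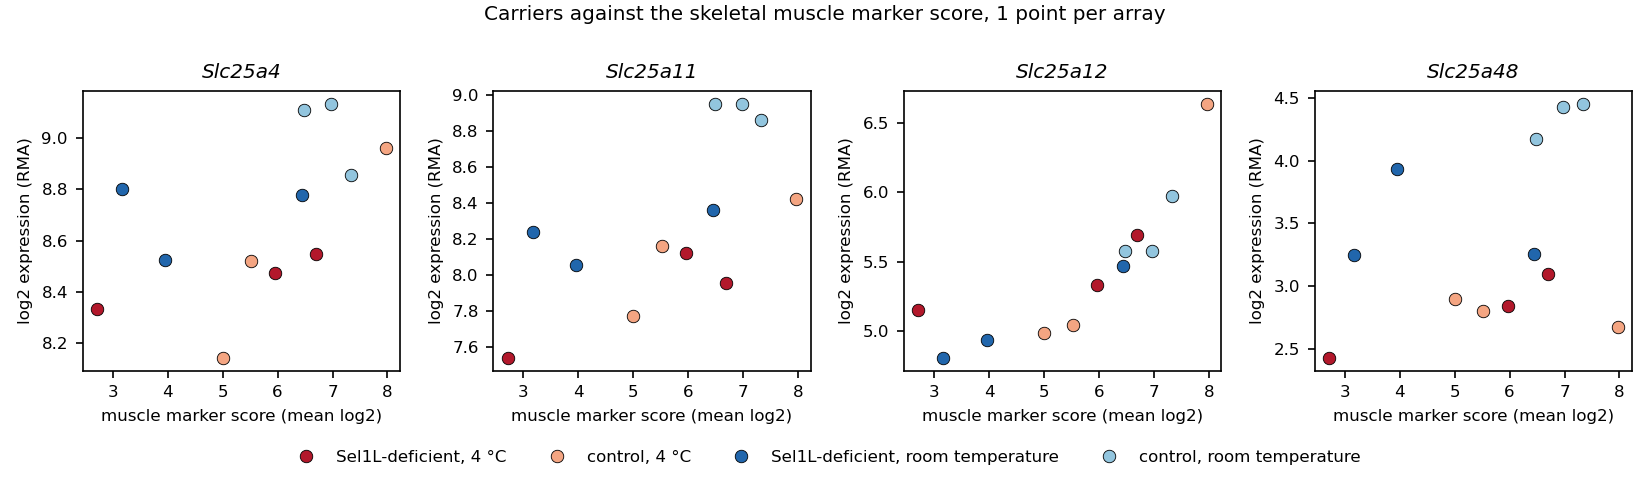
RMA values (log2) of Slc25a4, Slc25a11, Slc25a12 and Slc25a48 on the vertical axes against the mean log2 value of 16 skeletal muscle markers on the horizontal axis, with 1 point per array coloured by group. Slc25a12 reaches 6.64 on the array with the highest score, 7.97, while Slc25a48 reads 2.67 there.

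Carriers are made in the cytosol and reach the inner membrane through the TOM complex, the small TIM chaperones and the TIM22 complex. Of 14 measured genes of this import route, 0 were called for genotype at either temperature. With cold 2 rose in each genotype, Timm10 (0.67) and Timm8a1 (0.71) in arrays labelled Sel1L-deficient, and Timm8a1 (0.55) and Timm9 (0.51) in controls, all of them chaperones of the intermembrane space, where 4.32% and 4.85% of all probe sets were higher. The list's median was -0.07 and -0.01 in these comparisons. Of 21 other transporters of the mitochondrial membranes, 3 were lower in arrays labelled Sel1L-deficient than in controls at 4 °C (2.19% of all probe sets), namely Ucp3 (-1.47), Letm1 (-0.62) and Sfxn5 (-0.80). With cold 2 fell in arrays labelled Sel1L-deficient (4.7% of all probe sets), Ucp3 (-1.76) and Sfxn5 (-0.82). In controls 4 fell (6.23%), Sfxn5 (-0.78) and the ABC transporters Abcb10 (-1.25), Abcb6 (-0.63) and Abcb8 (-0.82). None of the 21 was called higher in any comparison (limma). The list's median was -0.05, -0.16 and -0.27 in these 3 comparisons. Ucp3 is an uncoupling protein best known from muscle and brown fat, Letm1 an ion exchanger of the inner membrane and Sfxn5 a sideroflexin.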

How the data were processed

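Expression was profiled in whole brown adipose tissue of 12 mice, 1 array each. Per the labels' protocols, total RNA was labelled with a whole-transcript assay. The deposited table holds log2 values of 41345 probe sets, for which the authors used RMA (background correction, quantile normalization, probe summary), per the submitters' processing notes. RMA compresses differences near the background. Gene names came from the platform annotation (23521 probe sets with 1 symbol, 1814 with several, 16010 unnamed). Of the table's columns, 0 were left unmapped.

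Groups came from the titles. The fit (limma 3.58.1, R 4.3.3) took every array together and gave each group its own mean, with 8 residual degrees of freedom and a prior of 4.45. It was tested on simulated data. P-values were adjusted by Benjamini-Hochberg over the 23521 probe sets. Errors are the model's SE, n is 3 arrays per group, and intervals are 95%. Members, role groups and marker lists were chosen with earlier results of these data known. Named by rule were the members called in at least 1 comparison, with Slc25a3, Slc25a4, Slc25a5, Slc25a25, Slc25a34 and Slc25a47, and others by lowest adjusted p in their role group. Slc25a10, Slc25a12, Slc25a13, Slc25a26, Slc25a32, Slc25a36, Slc25a39 and Slc25a41 were named after their values were seen. The slope on the muscle score was added after seeing the data. Alternatives were array centring, a filter on dim probe sets, other feature sets, priors and weights, only the arrays compared, the replicate number as a block, the muscle score, the conflicting array moved, and leaving out single arrays.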

Additional observations from a re-analysis of the deposited data

How the results depend on the processing

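Over 19 calls of a carrier in a comparison, 22 alternatives each gave 418 values, of which 0 reversed, 85 lost the call and 333 kept it. The calls of Slc25a22 for genotype at 4 °C and of Slc25a42 for cold in arrays labelled Sel1L-deficient were lost in none. Leaving out single arrays gave 0 to 1 carriers called for genotype at room temperature, 1 to 5 for genotype at 4 °C, 2 to 7 for cold in arrays labelled Sel1L-deficient, 6 to 11 for cold in controls and 0 to 1 for the interaction. The count for genotype at room temperature was 0 when unnamed probe sets were also tested, with array weights, with the muscle score and with the conflicting array moved to 4 °C. Array weights gave 5 for genotype at 4 °C, adding Slc25a16 and Slc25a33. Testing unnamed probe sets too gave 2 for cold in arrays labelled Sel1L-deficient. With the conflicting array moved, cold called 1 carrier in arrays labelled Sel1L-deficient, and in controls 0 carriers and 0 probe sets at all. The other counts stayed within 1.5 times. The replicate block gave 1, 3, 5, 10 and 0 carriers (genotype at room temperature and at 4 °C, cold in arrays labelled Sel1L-deficient and in controls, interaction) and lost 2 calls, those of Slc25a35 and Slc25a45 for cold in arrays labelled Sel1L-deficient. Deviations of same-numbered arrays correlated at -0.18 to 0.17, over 0.1 in 2 of 18 pairs. Those of different-numbered arrays correlated at -0.30 to 0.25, over 0.1 in 6 of 36 pairs. With 3 arrays per group this cannot decide whether the numbers pair the samples. No carrier had several probe sets, so the choice among them could not be varied. The cause of lost calls was not tested. Signal over background was not assessed per probe, which limits statements on the 8 dim carriers.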
